A study of Homo sapiens with 12 samples.

Results

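CCNG1 and 9 other genes that the transcription factor p53 is known to switch on were followed through a polysome profiling experiment. The 10 genes were CCNG1, CDKN1A, MDM2, BAX, BBC3, GDF15, SESN1, RRM2B, ZMAT3 and TP53I3, taken by name from 15115 named genes. CCNG1 was chosen by a measured value, its higher level with the PRMT4 inhibitor than with DMSO, so that difference is a description and carries no test. All libraries came from HEK293T cells, a human embryonic kidney line that carries the SV40 large T antigen, a viral protein known to bind p53. The cells received DMSO (the solvent), a compound against PRMT1 or a compound against PRMT4 (CARM1), enzymes that methylate arginines in proteins. Which compounds were used, at what dose and for how long, is not stated in the labels. For each treatment RNA was sequenced from the total input and from mRNA carrying 1 ribosome, 2 ribosomes, or 3 or more ribosomes, as separated on a sucrose gradient. That gave 12 libraries with 1 library per group, so no difference between treatments could be set against a spread between cultures, and none was tested. Gradient position, measured within each treatment, was available under all 3 and was tested across them.

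p53 is a sequence-specific transcription factor that is stabilised after DNA damage and other stresses. Its targets include cell cycle inhibitors, a ubiquitin ligase that returns p53 to a low level, mediators of mitochondrial cell death, and genes of nucleotide supply and metabolism. How far an mRNA sediments in a sucrose gradient reflects how many ribosomes it carries, and short coding sequences have room for fewer of them. In bulk libraries of this kind, fewer cells with a transcript and less RNA per cell cannot be told apart.

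The p53 consensus is made of 2 adjacent 10-base elements and reads alike on both strands. It was looked for in RefSeq windows (GRCh38.p14) from 250 bases before to 50 bases after annotated starts, and no other motif was searched. There were 16 windows for 9 of the 10 genes. RRM2B was left out of this search by its chromosome, whereas the windows of all genes were not filtered in this way. Among all 35116 windows, 0.649% held a 20-base match with at most 2 mismatches, and among the 9 genes only MDM2 had one, at chr12:68808923-68808942 on the plus strand, 94 to 75 bases before an internal start. With at most 3 mismatches the share of all windows was 5.20%, and SESN1 (chr6:109009018-109009037) and GDF15 (28 to 47 bases after its start) were added. A perfect 10-base element stood in 6.63% of all windows and in that of SESN1, as GGACAAGTCT. The 250 bases before a start are shown for CCNG1 (chr5:163437321-163437570, plus strand), the gene on which the set was chosen, and for MDM2 (chr12:68808767-68809016, plus strand), the gene with the closest match, which is in capitals.
CCNG1: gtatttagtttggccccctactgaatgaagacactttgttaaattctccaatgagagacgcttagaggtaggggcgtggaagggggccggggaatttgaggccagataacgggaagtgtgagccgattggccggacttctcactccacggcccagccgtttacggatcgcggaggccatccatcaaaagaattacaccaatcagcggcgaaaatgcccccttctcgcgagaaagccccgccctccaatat
MDM2: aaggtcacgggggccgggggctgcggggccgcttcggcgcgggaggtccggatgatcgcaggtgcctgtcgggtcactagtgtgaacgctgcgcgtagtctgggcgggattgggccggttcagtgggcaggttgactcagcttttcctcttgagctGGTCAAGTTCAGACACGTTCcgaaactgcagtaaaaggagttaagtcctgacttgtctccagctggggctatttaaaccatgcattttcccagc
The closest match in the CCNG1 windows had 6 mismatches. These matches describe the letters in the windows and say nothing of binding in these cells.

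Levels are in FPKM, which divides fragments by the length of the transcript and by the size of the library, a scale that can be compared between genes. The smallest FPKM values of single-transcript genes came in whole steps, which puts the depth at about 418000 to 577000 counted fragments per library. The DMSO input had the lowest summed FPKM, 201967 against 329897 to 425444 elsewhere, and it also listed 2905 of 10705 tested genes at 0, against 1138 to 2057 elsewhere. Genes were tested if their FPKM averaged 1 or more across the 12 libraries, which all 10 p53 targets reached. RRM2B reached it only through the inhibitor libraries, and GDF15 only through the DMSO library with 1 ribosome. The cell line label was set against markers: KRT8 (a keratin of epithelial cells) had a mean FPKM of 907 and VIM (vimentin) one of 261, MYC 44.8, NEFM (a neurofilament) 14.7, KRT18 (the partner keratin of KRT8) 7.79 and ENO2 7.62, while PAX2 and EYA1, of the kidney lineage, were near 0 at 0.497 and 0.265. Of 12 markers of other cell types 3 were in the table. HBA1, a globin gene of red blood cells, had a mean of 23.7 FPKM, and its part in the results was not tested.

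By mean FPKM over the 12 libraries, BBC3 (27.8), TP53I3 (27.5), MDM2 (21.7), BAX (20.97) and CCNG1 (15.7) formed an upper group of the targets. CDKN1A (6.32) stood between them and SESN1 (2.98), ZMAT3 (1.77), GDF15 (1.37) and RRM2B (1.12). MDM2, BAX, BBC3, ZMAT3 and TP53I3 were listed above 0 in every library, whereas GDF15 and RRM2B were listed at 0 in 9 of 12. Exons of another gene lie on the opposite strand of 5 of the 10 (CDKN1A, MDM2, BBC3, SESN1 and TP53I3), as for 45.5% of tested genes. The strand setting of the counting is not given, so reads of such partners could be included for these 5.

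**Figure D1:**
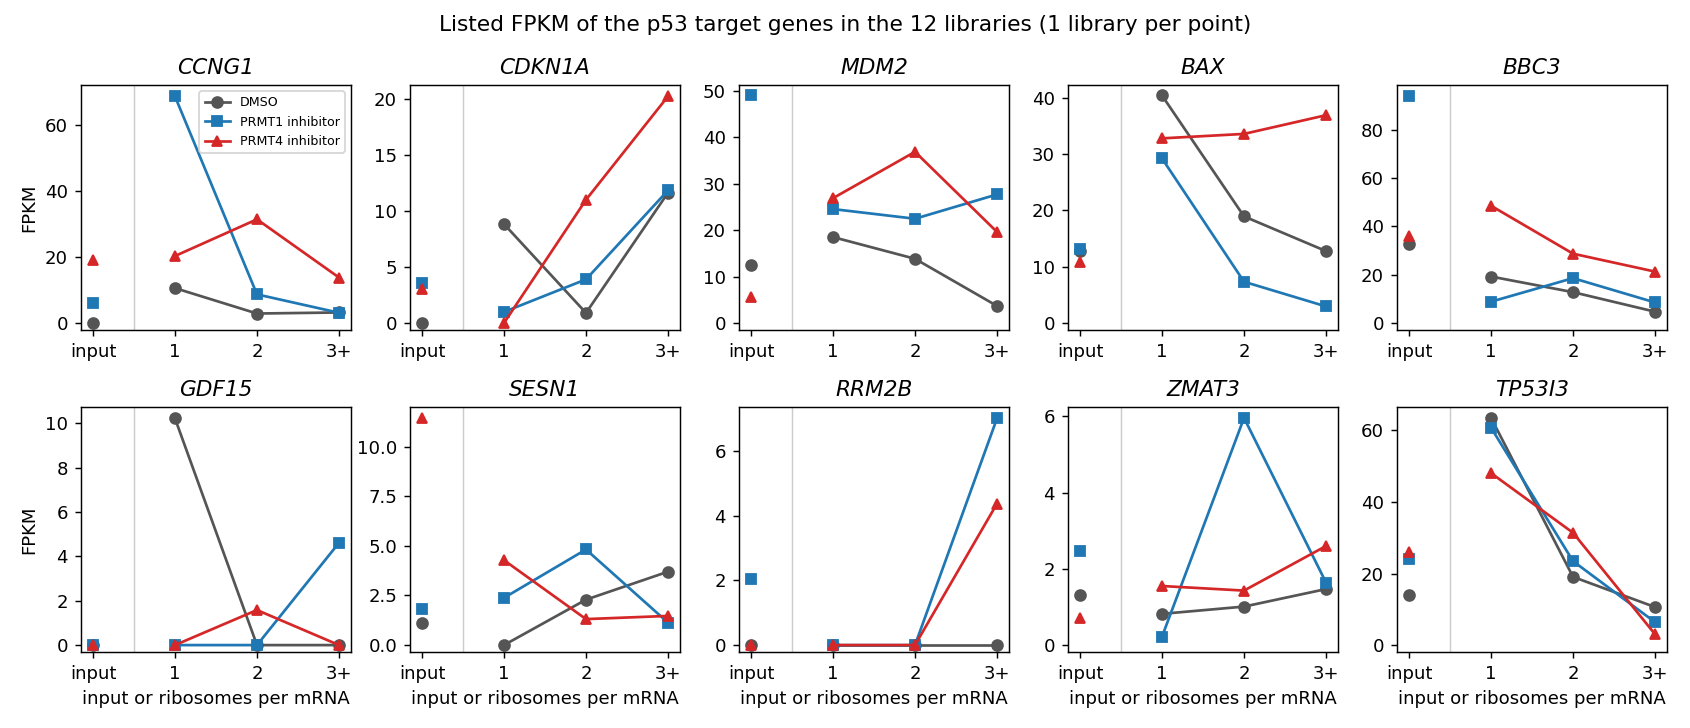
FPKM of each p53 target gene (vertical axis, own scale per panel) in the input and in mRNA with 1, 2 and 3 or more ribosomes (horizontal axis) for DMSO (grey circles), PRMT1 inhibitor (blue squares) and PRMT4 inhibitor (red triangles), 1 library per point. TP53I3 declines from 1 to 3 or more ribosomes under each treatment, and CCNG1 peaks at 68.8 in 1 library of the PRMT1 inhibitor.

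CCNG1 encodes cyclin G1, which binds the phosphatase PP2A and takes part in feedback on MDM2 and p53. In DMSO its FPKM was 0 in the input, 10.6 with 1 ribosome, 2.89 with 2 and 3.21 with 3 or more. With the PRMT1 inhibitor the values were 5.94, 68.8, 8.70 and 3.12 in the same order. With the PRMT4 inhibitor they were 19.1, 20.3, 31.5 and 13.8. Every PRMT4 inhibitor library was thus above every DMSO library, whereas with the PRMT1 inhibitor the excess lay in the input and the lighter fractions and was absent with 3 or more ribosomes.

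Against DMSO, the FPKM of CCNG1 was 1.92-fold higher with 1 ribosome, 10.9-fold with 2 and 4.30-fold with 3 or more under the PRMT4 inhibitor. Under the PRMT1 inhibitor the same ratios were 6.49, 3.01 and 0.972. No ratio is given for the inputs, because the DMSO input lists CCNG1 at 0 and is the library with the lowest summed FPKM. On the log2(FPKM + 1) scale, with each difference centred on its median over all tested genes, the input differences were 3.76 with the PRMT4 inhibitor and 2.12 with the PRMT1 inhibitor. Because the DMSO input is at 0, the pseudocount sets these sizes: they were 6.85 and 5.08 with a pseudocount of 0.1. The means over the 3 ribosome fractions were 1.92 and 1.29. Both sets of differences use the same DMSO libraries, and the low DMSO values enter both.

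Converted to fragments with the longest annotated transcript, CCNG1 had about 21 in the 3 DMSO fractions together, 97 with the PRMT1 inhibitor and 84 with the PRMT4 inhibitor. Scaled for depth, these sums were 4.73-fold and 4.06-fold the DMSO sum, and the PRMT4 inhibitor sum was 0.859 of the PRMT1 inhibitor sum. No interval is given for these ratios, since CCNG1 was chosen on the PRMT4 inhibitor values and the DMSO libraries are shared. Fragment numbers are approximate: with the median transcript length the total over the 12 libraries would be 68.6 and not 230.

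In order of level, CCNG1 was highest with 1 ribosome under the PRMT1 inhibitor, at about 81 fragments (exact Poisson 95% interval 64.3 to 101). Next came 2 ribosomes under the PRMT4 inhibitor, at 45 fragments (32.8 to 60.2). With the median transcript length these would be 24.0 and 13.3 fragments. No separation is read from the intervals, since CCNG1 was chosen on the PRMT4 inhibitor values. The DMSO input closed the order at 0 fragments, with an upper bound of 3.69.

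**Figure D2:**
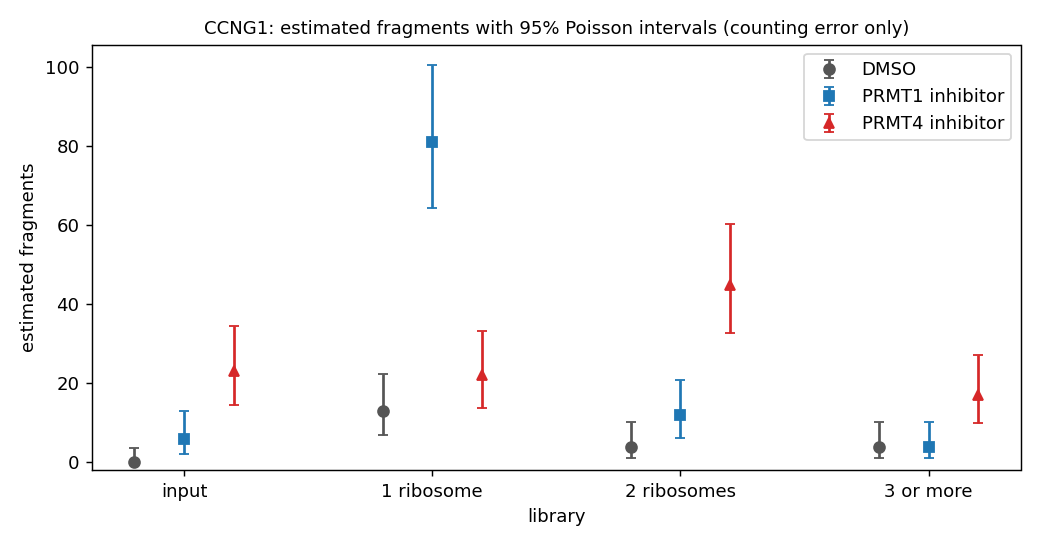
Estimated CCNG1 fragments (vertical axis) in the input and the 3 ribosome fractions (horizontal axis) for DMSO (grey), PRMT1 inhibitor (blue) and PRMT4 inhibitor (red), 1 library per point, with exact Poisson 95% intervals that cover counting error only. The PRMT1 inhibitor library with 1 ribosome stands highest at 81 fragments, and the DMSO input is at 0.

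Among 5921 genes averaging 5 FPKM or more, the patterns most like that of CCNG1 over the 12 libraries belonged to PLS1 (Pearson r = 0.92), TRIM62 (0.90), LPCAT3 (0.90), RTN3 (0.89) and TMEM44 (0.89), on the log2 scale. PLS1, too, had a listed value of 0 in the DMSO input and was highest, at 17.3 FPKM, with 1 ribosome under the PRMT1 inhibitor. The other p53 targets that could be ranked were less like it: BAX had r = 0.51 (rank 1469), TP53I3 0.49 (1641), MDM2 0.29 (2857), CDKN1A 0.12 (3794) and BBC3 0.06 (4076). These values share libraries and depth and are a description.

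CDKN1A encodes p21, the inhibitor of cyclin-dependent kinases through which p53 is best known to stop the cell cycle. Its FPKM in input, 1, 2 and 3 or more ribosomes was 0, 8.82, 0.90 and 11.6 in DMSO. It was 3.55, 0.99, 3.89 and 11.8 with the PRMT1 inhibitor, and 3.05, 0, 11.0 and 20.2 with the PRMT4 inhibitor. CDKN1A was highest with 3 or more ribosomes under each treatment.

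The summed fragments of CDKN1A in the ribosome fractions were about 24 in DMSO, 19 with the PRMT1 inhibitor and 38 with the PRMT4 inhibitor. The ratios to DMSO, scaled for depth, were 0.811 (95% interval 0.420 to 1.55) and 1.61 (0.940 to 2.80). Both intervals, which are exact, conditional and cover counting error only, hold equality, so a difference of CDKN1A from DMSO was not detectable at this depth. Between the inhibitors, the PRMT4 inhibitor sum was 1.98-fold the PRMT1 inhibitor sum (1.12 to 3.64). That interval excludes equality for counting error alone, with fragments taken from the longest transcript. With the median length the CDKN1A total over the 12 libraries would be 56.6 and not 88.6 fragments. Intervals would then be wider and were not computed, so nothing is read from the exclusion. Input differences of 1.51 and 1.45 (log2, centred) rest on a DMSO input listed at 0 and on about 3 fragments in each inhibitor input.

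MDM2 encodes the ubiquitin ligase that targets p53 for degradation and is itself a p53 target, the classic feedback loop of the pathway. In DMSO its FPKM was 12.4 in the input and 18.5, 13.8 and 3.68 with 1, 2 and 3 or more ribosomes. With the PRMT1 inhibitor it was 48.9, 24.5, 22.4 and 27.7, and with the PRMT4 inhibitor 5.71, 26.9, 36.8 and 19.6. All 3 ribosome fractions were higher than in DMSO with each inhibitor, and the largest ratios lay with 3 or more ribosomes, at 7.52-fold and 5.32-fold. The inputs differed in direction: the PRMT1 inhibitor input was above and the PRMT4 inhibitor input below that of DMSO, with centred log2 differences of 1.21 and -1.57.

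The mean log2 difference of MDM2 over the ribosome fractions was 1.22 with the PRMT1 inhibitor and 1.33 with the PRMT4 inhibitor. MDM2 has 34 annotated transcripts whose lengths differ widely, so no counting interval is given for it. Its total over the 12 libraries would be 1633 fragments with the longest transcript and 106 with the median length. Exons of CPM and of AC025423.4 lie opposite MDM2 over 133 and 785 bases. CPM, a membrane carboxypeptidase, had a mean of 4.16 FPKM.

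BAX forms pores in the outer mitochondrial membrane, and BBC3 (PUMA) is a BH3-only protein that triggers that step. The FPKM of BAX in input, 1, 2 and 3 or more ribosomes was 12.7, 40.4, 18.9 and 12.8 in DMSO. With the PRMT1 inhibitor it was 13.2, 29.2, 7.33 and 2.95, and with the PRMT4 inhibitor 10.9, 32.8, 33.6 and 36.9. The inputs and the fractions with 1 ribosome differed less across treatments than the heavier fractions, which stood below DMSO with the PRMT1 inhibitor and above it with the PRMT4 inhibitor. With 3 or more ribosomes BAX was 4.33-fold lower than DMSO with the first and 2.89-fold higher with the second.

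Summed over the fractions, BAX had about 51 fragments in DMSO, 26 with the PRMT1 inhibitor and 72 with the PRMT4 inhibitor. The ratios to DMSO were 0.522 (0.313 to 0.854) and 1.43 (0.988 to 2.10). The PRMT4 inhibitor sum was 2.75-fold the PRMT1 inhibitor sum (1.73 to 4.48), a comparison that uses no DMSO library and whose interval excludes equality for counting error alone. All 3 intervals take fragments from the longest transcript and would be wider with the median length. The BAX total over the 12 libraries would then be 85.8 and not 172 fragments.

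BBC3 had FPKM values of 32.6 in the DMSO input and of 19.2, 12.8 and 4.70 with 1, 2 and 3 or more ribosomes. They were 94.0, 8.84, 18.6 and 8.51 with the PRMT1 inhibitor, and 36.0, 48.5, 28.7 and 21.3 with the PRMT4 inhibitor. The PRMT4 inhibitor gave the highest value in every ribosome fraction, at 2.52-, 2.24- and 4.53-fold over DMSO, while its input was close to that of DMSO. The input of the PRMT1 inhibitor was the highest of the 12 libraries for this gene, without a like excess in its fractions.

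The fragment sums of BBC3 in the ribosome fractions were about 35, 34 and 89 for DMSO, PRMT1 inhibitor and PRMT4 inhibitor. They gave ratios to DMSO of 0.995 (0.602 to 1.64) and 2.58 (1.73 to 3.94). The PRMT4 inhibitor sum was 2.60-fold the PRMT1 inhibitor sum (1.73 to 3.98). These intervals cover counting error only, with fragments taken from the longest transcript, so they do not test a difference between treatments. With the median length the BBC3 total over the 12 libraries would be 263 and not 294 fragments. Between the inhibitors, BAX and BBC3 were the 2 of 10 targets at least 2-fold higher with the PRMT4 inhibitor in the mean of the fractions, where 9.24% of all tested genes were, and none was 2-fold lower, against 10.2% of all genes.

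TP53I3 encodes a quinone oxidoreductase known as PIG3. Its FPKM with 1, 2 and 3 or more ribosomes was 63.5, 19.1 and 10.6 in DMSO, 60.8, 23.5 and 6.40 with the PRMT1 inhibitor, and 48.1, 31.4 and 3.02 with the PRMT4 inhibitor. Its inputs were 13.9, 24.0 and 26.1. TP53I3 was the only one of the 10 whose FPKM went down from 1 to 2 to 3 or more ribosomes under all 3 treatments, as it did for 4.39% of tested genes.

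The fraction with 1 ribosome exceeded that with 3 or more by 5.98-fold in DMSO, 9.50-fold with the PRMT1 inhibitor and 15.9-fold with the PRMT4 inhibitor. In fragments, the ratio of 3 or more to 1 ribosome was 0.170 (0.0809 to 0.325), 0.0984 (0.0347 to 0.227) and 0.0613 (0.0122 to 0.192). These intervals, which cover counting error only, overlap, so the order of the 3 treatments was not resolved, but each lies below 1. The summed fragments of TP53I3 were 96, 89 and 81, with ratios to DMSO of 0.95 (0.704 to 1.28) and 0.857 (0.630 to 1.16). The longest annotated coding sequence of TP53I3 has 331 codons, against 294 for CCNG1 and 163 for CDKN1A. Those of BAX, BBC3 and MDM2 have 217, 260 and 496. Whether coding length bears on the position was not tested.

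SESN1 (sestrin 1, which restrains mTORC1 signalling), RRM2B (a ribonucleotide reductase subunit), ZMAT3 (a zinc finger RNA-binding protein) and GDF15 (a secreted stress cytokine) were too low for firm statements. SESN1 had FPKM of 1.10, 0, 2.29 and 3.70 in DMSO, 1.81, 2.38, 4.82 and 1.13 with the PRMT1 inhibitor, and 11.4, 4.28, 1.31 and 1.47 with the PRMT4 inhibitor. The PRMT4 inhibitor input stood apart at 10.4-fold the DMSO input, on about 20 fragments against 2, while the fraction sums of 11, 15 and 13 fragments were close together. Exons of AL390208.1 lie opposite SESN1 over 363 bases.

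RRM2B was listed at 0 in all 4 DMSO libraries, at 2.06 in the PRMT1 inhibitor input, and with 3 or more ribosomes at 7.02 and 4.38 under the PRMT1 and PRMT4 inhibitors. Its other inhibitor libraries were at 0, and the fraction sums were about 0, 17 and 11 fragments. GDF15 appeared in 3 libraries only, at 10.2 with 1 ribosome in DMSO, 4.61 with 3 or more ribosomes under the PRMT1 inhibitor and 1.58 with 2 ribosomes under the PRMT4 inhibitor. Those 3 values stand for about 6, 3 and 1 fragments, and they fall in 3 different fractions.

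ZMAT3 lay between 0.22 and 5.96 FPKM in all libraries, with its highest value at 2 ribosomes under the PRMT1 inhibitor. In DMSO it was 1.32 in the input and 0.82, 1.01 and 1.47 in the fractions, and with the PRMT4 inhibitor 0.70 and 1.55, 1.43 and 2.60. Under that inhibitor ZMAT3 was thus higher than DMSO in each fraction and lower in the input. Its fraction sums of 16, 39 and 27 fragments gave ratios to DMSO of 2.5 (1.36 to 4.79) with the PRMT1 inhibitor and 1.71 (0.891 to 3.41) with the PRMT4 inhibitor. Both intervals cover counting error only and do not test a difference between treatments. With the median transcript length the ZMAT3 total over the 12 libraries would be 31.7 and not 101 fragments, and the intervals would be wider.

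Taking the 10 genes as a set, the counts of members past a fold of 2 in the inputs are read against the share of all tested genes. With the PRMT1 inhibitor, 3 of 10 were at least 2-fold higher in the input (CCNG1, CDKN1A and MDM2), against 22.8% of all genes, and 0 were 2-fold lower, against 16.6%. With the PRMT4 inhibitor, 3 were higher (CCNG1, CDKN1A and SESN1), against 28.1%, and 2 were lower (MDM2 and ZMAT3), against 19.6%. The members' median input differences were 0.44 and -0.50, beside medians of 0 for all genes. GDF15 was listed at 0 in every input, and RRM2B in the DMSO and PRMT4 inhibitor inputs. For such pairs the value is only the shift removed by centring, -0.57 for both genes with the PRMT4 inhibitor. These pairs enter the medians, so nothing is read from the signs.

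In the mean of the ribosome fractions, 3 of 10 were at least 2-fold higher with the PRMT1 inhibitor (CCNG1, MDM2 and RRM2B), where 9.86% of all genes were, and 1 was lower (BAX), where 8.58% were. For the PRMT4 inhibitor 3 were higher (CCNG1, MDM2 and BBC3), where 9.62% of all genes were, and 0 were lower, where 9.35% were. The members' medians were 0.25 and 0.54, beside 0.02 and 0.05 for all genes. Higher values in all 3 fractions were found for 1 of 10 with the PRMT1 inhibitor (MDM2), against 13.4%, and for 4 of 10 with the PRMT4 inhibitor (CCNG1, MDM2, BBC3 and ZMAT3), against 13.8%. RRM2B, at 0 in every DMSO library, passed the minimum only through the inhibitor libraries. Its place among the higher genes was therefore open in 1 direction only, and it also enters the medians. The set was chosen with these comparisons known, so nothing is read from the excess.

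An input and fraction rule asked for a 2-fold difference or more in the input, and for 1.5-fold or more the same way in every fraction. It was met upward by 1 of 10 with the PRMT4 inhibitor (CCNG1), beside 1.19% of all genes. CCNG1 was chosen for its higher level with that inhibitor, so nothing is read from this count. With the PRMT1 inhibitor 0 of 10 met the rule, beside 0.682% of all genes. Just inside it, the smallest fraction difference of CCNG1 was 0.88 (log2), with 1 ribosome. BBC3 passed the fraction part, at 1.29, 1.11 and 1.97 (log2), but not the input part, at -0.43. MDM2 met neither part, with 0.51 at 1 ribosome and -1.57 in the input.

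**Figure D3:**
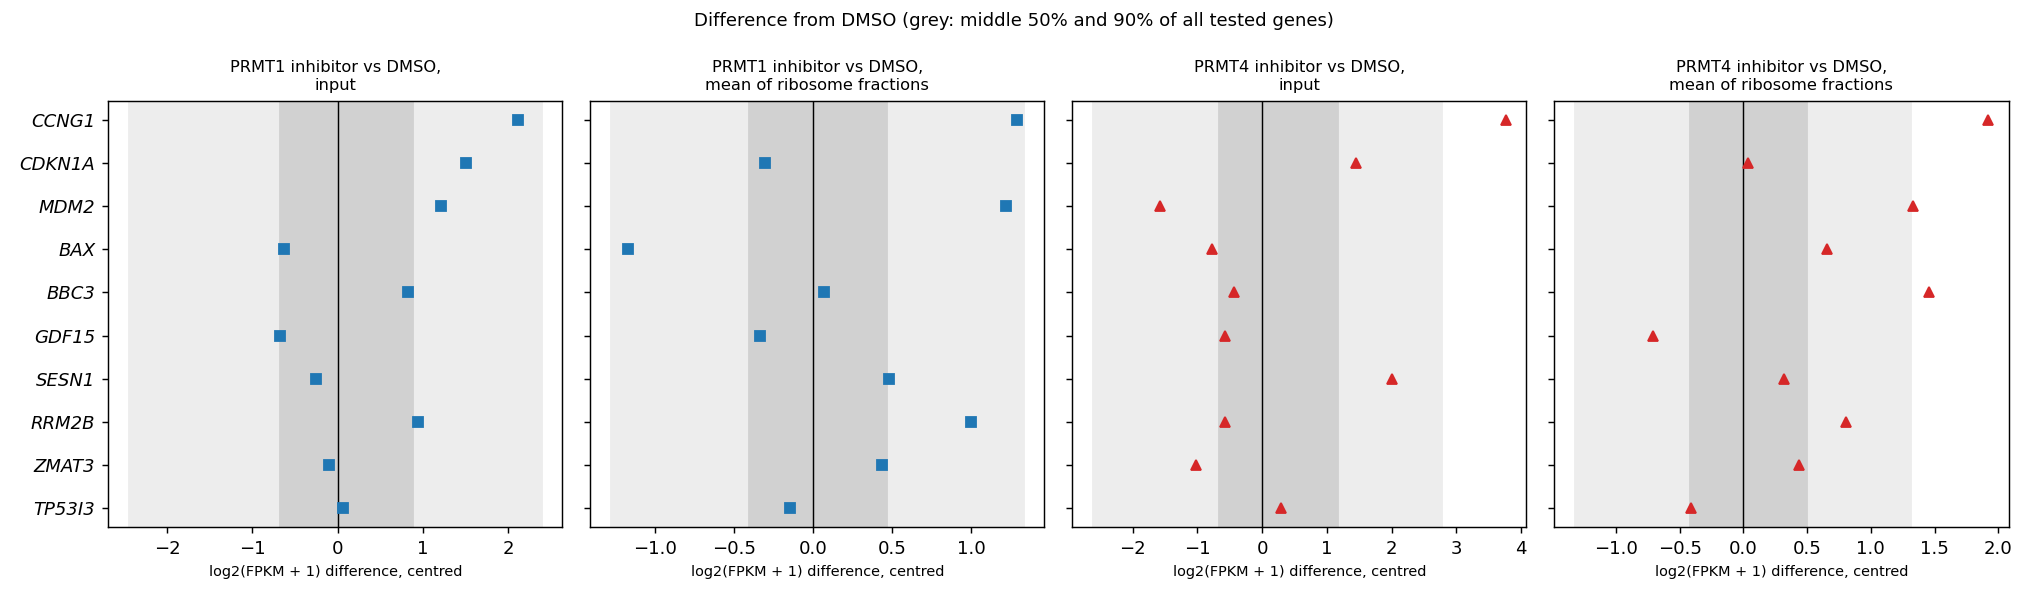
Centred log2(FPKM + 1) difference from DMSO (horizontal axis) of each p53 target gene (rows) in the input and in the mean of the 3 ribosome fractions, for the PRMT1 inhibitor (blue squares) and the PRMT4 inhibitor (red triangles), 1 library or 3 fractions per point. Dark and light grey bands hold the middle 50% and 90% of all tested genes; CCNG1 lies right of both bands in the input (3.76) and the fractions (1.92) of the PRMT4 inhibitor.

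Gradient position compares the fraction with 3 or more ribosomes with that of 1 ribosome, as a centred log2 ratio, and uses no DMSO library when it is taken within an inhibitor treatment. In DMSO 6 of 10 targets lay at least 2-fold toward 1 ribosome (CCNG1, MDM2, BAX, BBC3, GDF15 and TP53I3), against 26.5% of all genes, and 1 lay toward 3 or more (SESN1), against 22.6%. With the PRMT1 inhibitor 3 lay toward 1 ribosome (CCNG1, BAX and TP53I3), against 27.2%, and 4 toward 3 or more (CDKN1A, GDF15, RRM2B and ZMAT3), against 22.4%. With the PRMT4 inhibitor the counts were 3 (BBC3, SESN1 and TP53I3), against 24.8%, and 2 (CDKN1A and RRM2B), against 22.5%. RRM2B passed the minimum only through inhibitor libraries, chiefly those with 3 or more ribosomes, and GDF15 only through its DMSO library with 1 ribosome. GDF15 also rests on 6 fragments in DMSO and 3 with the PRMT1 inhibitor, so nothing is read from the counts that hold these genes. The members' medians were -1.51 in DMSO, 0.12 with the PRMT1 inhibitor and -0.17 with the PRMT4 inhibitor, beside 0 for all genes.

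Across the 3 treatments, position was tested against that of the median gene with limma, fitted on all tested genes with 1 value per treatment, which takes the treatments as repeats. TP53I3 lay toward 1 ribosome with a mean position of -3.00 (SE 0.39, n = 3 treatments, adjusted p = 0.0312 by limma), below 0 in 3 of 3 treatments, and it was the only one of the 10 to pass 0.05, where 1.1% of all genes passed in that direction and 0.439% in the other. That call was lost with upper-quartile scaling (adjusted p = 0.0608), with a pseudocount of 0.1 (0.0754), without a minimum (0.183), and when any 1 treatment was left out (0.289 to 0.318). CDKN1A had a mean of 2.53 (SE 0.90, adjusted p = 0.212 by limma) and CCNG1 one of -1.98 (SE 0.75, adjusted p = 0.228 by limma), and neither passed.

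The position of CCNG1 was -1.45 in DMSO, -4.02 with the PRMT1 inhibitor and -0.48 with the PRMT4 inhibitor. In fragments, its ratio of 3 or more to 1 ribosome was 0.305, 0.0470 and 0.663. The fractions with 3 or more ribosomes held about 4 fragments in DMSO and 4 with the PRMT1 inhibitor. No interval is given for these ratios, since CCNG1 was chosen on the PRMT4 inhibitor values, and their order was not tested. TP53I3 was the only target at least 2-fold toward 1 ribosome under all 3 treatments, at -2.46, -3.00 and -3.56, as 6.27% of tested genes were. CDKN1A and ZMAT3 lay above 0 under all 3, at 0.38, 2.75 and 4.46 for CDKN1A and no lower than 0.46 for ZMAT3. RRM2B is counted with them, but was listed at 0 in DMSO, where centring alone puts its position at 0.01. Of tested genes 21.1% lay above 0 throughout. That share also counts genes at 0 in both fractions of a treatment as above 0 there, so nothing is read from it.

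**Figure D4:**
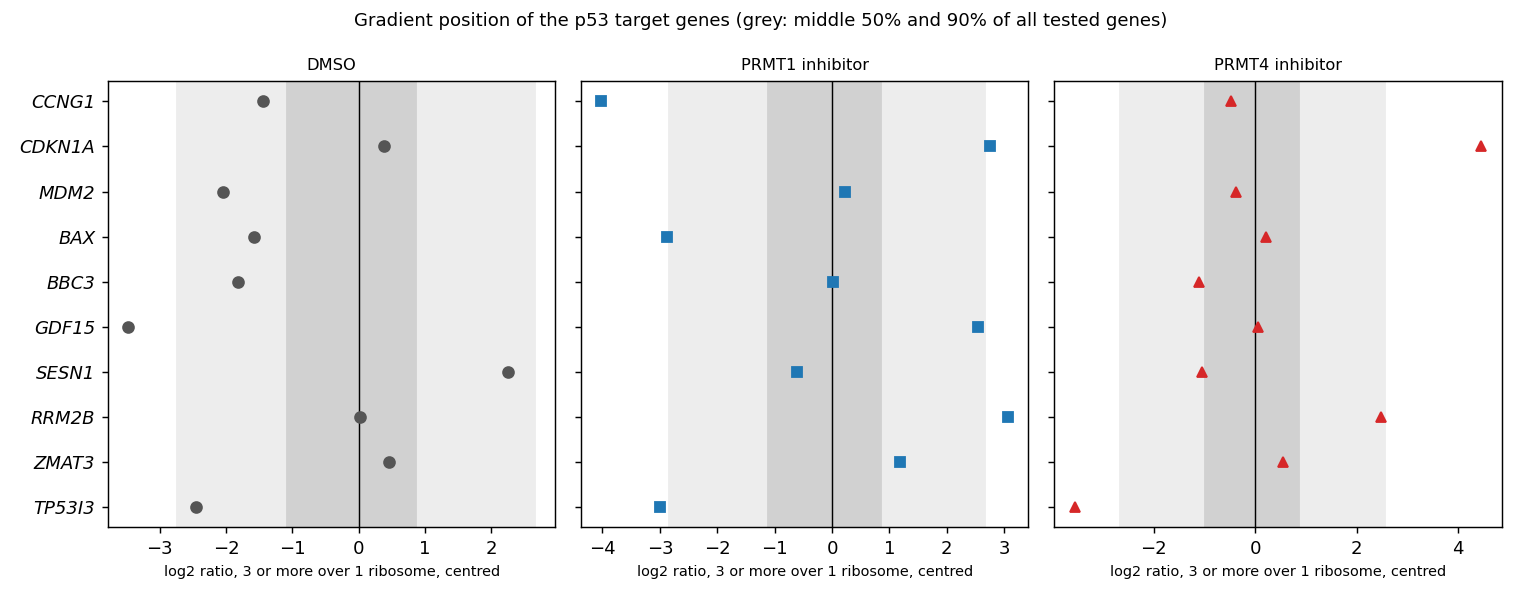
Gradient position (horizontal axis, centred log2 ratio, the fraction with 3 or more ribosomes over that with 1) of each p53 target gene (rows) in DMSO, with the PRMT1 inhibitor and with the PRMT4 inhibitor, 1 pair of libraries per point; dark and light grey bands hold the middle 50% and 90% of all tested genes. TP53I3 lies left of 0 in each panel (-2.46, -3.00 and -3.56), and CCNG1 moves between -4.02 and -0.48.

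Against DMSO, gradient position was at least 2-fold higher with the PRMT1 inhibitor for 5 of 10 (CDKN1A, MDM2, BBC3, GDF15 and RRM2B), where 25.8% of all genes were, and lower for 3 (CCNG1, BAX and SESN1), where 26.5% were. With the PRMT4 inhibitor it was higher for 5 (CDKN1A, MDM2, BAX, GDF15 and RRM2B), where 27.4% were, and lower for 2 (SESN1 and TP53I3), where 25.4% were. Both comparisons subtract the same DMSO positions. RRM2B, which is at 0 in every DMSO library and passed the minimum only through the inhibitor libraries, and GDF15, with 6 fragments or fewer under each treatment, are among the 5 in both comparisons, so nothing is read from these counts. MDM2 differed by 2.28 and 1.66, BAX by -1.30 and 1.79, and CCNG1 by -2.57 and 0.97 with the PRMT1 and PRMT4 inhibitors. BAX therefore lay further toward 1 ribosome with the PRMT1 inhibitor and further toward 3 or more with the PRMT4 inhibitor. For CCNG1 the PRMT4 inhibitor value was under the fold of 2, and its DMSO position rests on about 13 and 4 fragments.

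Other genes of the pathway were taken from lists by role. Of 11 tested p53 targets of the cell cycle and of feedback, 2 were at least 2-fold higher and 0 lower in the mean of the fractions with the PRMT1 inhibitor, and 3 were higher and 1 lower with the PRMT4 inhibitor. Of 11 tested cell death targets none passed that fold in either direction with either inhibitor. Of 15 tested targets in DNA repair and metabolism, 2 were higher and 0 lower with the PRMT1 inhibitor, and 1 was higher and 2 lower with the PRMT4 inhibitor. Of 19 tested cell cycle genes that are known to be repressed when p53 is active, 1 was lower and 0 higher with each inhibitor. Among 18 regulators and partners of p53, 4 were higher with the PRMT1 inhibitor and 2 with the PRMT4 inhibitor, and 0 lower. Of 14 partners and relatives of p21, 2 were higher with the first and 1 lower with the second. Among 10 partners and relatives of cyclin G1, including PP2A subunits, 0 were higher with either inhibitor and 2 lower with the PRMT4 inhibitor, and of 7 relatives of the sestrins and of RRM2B none passed the fold. For all tested genes the shares in 1 direction were 8.58 to 9.86%, as given above.

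PHLDA3, a p53 target that restrains AKT signalling, was the gene of these lists that met the input and fraction rule upward with the PRMT1 inhibitor. Among all tested genes 0.682% met it. Its FPKM was 9.86, 2.54, 7.08 and 17.5 in DMSO and 36.7, 10.7, 14.2 and 30.6 with that inhibitor. With the PRMT4 inhibitor CDKN2AIP, whose product binds the ARF protein, went from 7.77, 5.33, 4.96 and 10.5 to 0.79, 0, 2.33 and 2.52. E2F1, a transcription factor of S phase genes, went from 3.91, 12.9, 8.24 and 3.97 to 0, 7.37, 3.52 and 1.58. The share of all genes that met the rule downward was not counted, so nothing is read from CDKN2AIP and E2F1.

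Relatives of the 10 genes gave a reference for level. CCNG2, the other cyclin G, had a mean of 0.599 FPKM and BAK1, the other pore-forming protein beside BAX, one of 0.976, so neither was tested. MDM4, the partner of MDM2, was likewise at 0 in the input of DMSO, and reached 5.95 and 8.83 FPKM in the PRMT1 and PRMT4 inhibitor inputs. SESN2 (3.47) was near SESN1 in mean level. SESN3 (7.25) stood at 6.25 FPKM in the heaviest DMSO fraction and at 0 and 0.20 in that fraction with the PRMT1 and PRMT4 inhibitors, while with 1 ribosome it went from 5.64 to 13.4 and 14.7. RRM2, the S phase subunit of ribonucleotide reductase, had a mean of 108 FPKM against 1.12 for RRM2B.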

How the data were processed

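RNA of HEK293T cells was measured in 12 libraries (3 treatments by 4 gradient fractions, 1 library each), grouped by the labels. Differences between treatments had no replicates and were not tested; the 4 fractions of a treatment are not replicates. Gradient position was tested across the 3 treatments with a 1-sample limma fit (limma 3.58.1, R 4.3.3, Benjamini-Hochberg adjustment over 10705 genes), added after the values were seen. The deposited values were FPKM per Ensembl gene; per the submitters' processing notes the authors used cutadapt 1.18, STAR 2.5.3a and RSEM on GRCh37. Per the labels' protocols, libraries were made with a directional kit; no source used here gives the strand setting of the counting. The numbers in the titles put columns R1, R2 and R3 at 1, 2 and 3 or more ribosomes; all gradient values depend on it.

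Of 15534 gene IDs, 15299 matched a symbol; 182 small-RNA or clone symbols and 2 duplicates were left out. Differences were taken on the log2(FPKM + 1) scale, where those of low genes come out too small, and each was centred on its median over 10705 genes averaging 1 FPKM or more, removing shifts of 0.68 and 0.57 between the inhibitor and DMSO inputs. A fold of 2 was called; pairs of inputs both listed at 0 were not. Fragments were estimated as FPKM times transcript length over the FPKM worth of 1 fragment, read from 700 single-transcript genes of at least 2000 bases; 92.7 to 98.3% of their low values lay within 0.1 of a whole multiple. Transcript lengths and opposite-strand exons came from GENCODE 29, which is on another build, so no coordinates of it are given. Counting intervals were computed with the longest transcript only. Scripts used Python 3.11.15, numpy 2.4.6, pandas 2.3.3 and scipy 1.17.1, and were tested on simulated data. Named genes were the 10 members, the 5 most like CCNG1, members of 11 other lists with a mean FPKM of at least 5 that met the input and fraction rule, and 6 relatives. The level of 1 cell type marker is not reported here. The members and lists were chosen with earlier results of these data known. Alternatives were no centring, upper-quartile scaling, pseudocounts of 0.1 and 5, no minimum or a minimum of 5, and the median transcript length.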

Additional observations from a re-analysis of the deposited data

Results flagged for a closer look

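MDM2 differed from DMSO in opposite directions in 2 kinds of library under the PRMT4 inhibitor. Its centred log2 difference was -1.57 in the input and 1.33 in the mean of the ribosome fractions, where each of the 3 fractions was higher than in DMSO. The difference between these values was not tested, since each rests on 1 library per group.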

How the results depend on the processing

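The count of members at least 2-fold higher in the PRMT1 inhibitor input was 3 and became 5 without centring and 5 without a minimum. The count at least 2-fold lower in the PRMT4 inhibitor input was 2 and became 1 without centring, 1 without a minimum, 1 with a minimum mean FPKM of 5 and 0 with a pseudocount of 5; upper-quartile scaling made it 3 (BAX at -1.08 joined) and took MDM2 in the PRMT1 inhibitor input under 2-fold, to 0.96. With the mean of the ribosome fractions in place of the inputs, an alternative chosen after seeing the data, that count was 0, and the count lower with the PRMT1 inhibitor was 1 and not 0. The CCNG1 input difference with the PRMT1 inhibitor fell under 2-fold, to 0.78, with a pseudocount of 5 and was 5.08 with a pseudocount of 0.1. The members' median gradient position with the PRMT1 inhibitor was -1.25 with a minimum of 5, which leaves fewer members. For single genes and quantities, a pseudocount of 5 took 43 of 196 values under the fold called. No called value changed direction under any alternative run. With the median transcript length, 8 of 12 CCNG1 fragment numbers moved beyond their counting interval. No paired analysis was possible because there is 1 library per group for the differences between treatments; the gradient position test pairs fractions within a treatment. Depth limits the low targets: GDF15 had about 10.1 fragments over all 12 libraries.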

Other observations

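Relatives of BAX and BBC3 in the BCL2 family, which govern mitochondrial cell death, had more members at least 2-fold toward 1 ribosome than toward 3 or more under each treatment. Of 12 tested family members, 6 passed that fold toward 1 ribosome in DMSO (26.5% of all tested genes), 7 with the PRMT1 inhibitor (27.2%) and 6 with the PRMT4 inhibitor (24.8%). Toward 3 or more ribosomes 1, 1 and 0 passed it, where 22.6, 22.4 and 22.5% of all tested genes did. These counts were not tested. The family's median gradient position was -0.92, -1.19 and -1.37, beside 0 for all genes. In the mean of the fractions, 0 of 12 passed 2-fold in either direction with the PRMT1 inhibitor, and 1 was higher and 0 lower with the PRMT4 inhibitor.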
